A study of Mus musculus with 26 samples.

Results

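Dentate granule cells are the principal neurons of the dentate gyrus, the first relay of the hippocampus, and 8 genes that mark them were followed here across 2 brain regions and 8 groups of mouse arrays. The genes were chosen by earlier readings of the same arrays, as genes that separate hippocampus from entorhinal cortex, so the difference between the regions is given below as a description with no test. They are Prox1, Dsp, C1ql2, Tdo2, Lct, Calb1, Trpc6 and St18. All 18 probe sets annotated to only 1 of them were used, out of 45037 probe sets tested and 18193 genes with a probe set. Of these, 4 had a mean level under the 30th percentile of all probe sets. They were Prox1 1421336_at, Dsp 1427610_at, Tdo2 1455770_at and Calb1 1458836_at. Affymetrix arrays had measured messenger RNA in dissected, snap-frozen hippocampus and entorhinal cortex of aged mice, 13 arrays per region. In each region, 4 arrays came from mice with an amyloid precursor protein (APP) transgene given lentivirus for brain-derived neurotrophic factor (BDNF), a growth factor that neurons secrete, and 4 from APP transgenic mice given lentivirus for green fluorescent protein (GFP). A further 2 came from non-transgenic mice given the GFP virus and 3 from non-transgenic mice with a sham lesion. The virus had been placed in the entorhinal cortex 4 weeks before the tissue was taken. The promoter and line of the APP transgene, the age in months and whether an entorhinal and a hippocampal array share an animal could not be read from the labels. All values are log2 levels from RMA, a procedure that puts the arrays on a common distribution, and levels of different probe sets are not compared with each other.

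Axons from layer II of the entorhinal cortex form the perforant path, which ends on the dendrites of granule cells, and granule cells send mossy fibre axons to area CA3. Granule cells keep being born in the adult dentate gyrus, and BDNF is made by granule cells and carried in their mossy fibres. Prox1 is a homeobox transcription factor that sets and keeps granule cell identity. Calb1 encodes calbindin, a cytoplasmic calcium buffer whose dentate protein has been reported to be depleted in APP transgenic mice. The other genes encode a desmosomal linker protein (Dsp, desmoplakin), a secreted C1q-domain synaptic protein (C1ql2), the first enzyme of tryptophan breakdown (Tdo2, tryptophan 2,3-dioxygenase), an intestinal disaccharidase (Lct, lactase), a cation channel opened by diacylglycerol (Trpc6) and a zinc finger transcription factor (St18).

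Promoter sequences are shown for the 4 genes with the largest hippocampal excess among those matched, to set their start regions beside the levels that follow. RefSeq windows (build GRCm38.p6) were matched for 6 of the 8 genes, and the 250 bases before the start are printed 5′ to 3′ on the strand of the gene. Capitals mark the E-box CANNTG, the core motif of basic helix-loop-helix factors, which reads the same on both strands. The Dsp window is chr13:38151044-38151293 (+), the Tdo2 window chr3:81975729-81975978 (−), the Lct window chr1:128328319-128328568 (−) and the C1ql2 window chr1:120340332-120340581 (+).
Dsp: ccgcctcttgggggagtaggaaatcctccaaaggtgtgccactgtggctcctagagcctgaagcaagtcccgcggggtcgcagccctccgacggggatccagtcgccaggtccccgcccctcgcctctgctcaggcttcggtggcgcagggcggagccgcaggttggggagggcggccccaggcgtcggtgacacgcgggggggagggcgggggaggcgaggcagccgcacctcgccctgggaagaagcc
Tdo2: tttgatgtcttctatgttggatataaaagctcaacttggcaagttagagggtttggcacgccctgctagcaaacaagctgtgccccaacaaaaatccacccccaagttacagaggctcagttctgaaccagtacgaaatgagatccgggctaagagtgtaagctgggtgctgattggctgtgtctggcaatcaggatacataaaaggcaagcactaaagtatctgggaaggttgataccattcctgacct
Lct: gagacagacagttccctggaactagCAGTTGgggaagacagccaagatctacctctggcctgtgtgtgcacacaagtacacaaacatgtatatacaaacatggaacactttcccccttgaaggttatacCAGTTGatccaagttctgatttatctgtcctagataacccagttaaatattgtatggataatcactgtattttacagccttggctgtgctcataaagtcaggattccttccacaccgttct
C1ql2: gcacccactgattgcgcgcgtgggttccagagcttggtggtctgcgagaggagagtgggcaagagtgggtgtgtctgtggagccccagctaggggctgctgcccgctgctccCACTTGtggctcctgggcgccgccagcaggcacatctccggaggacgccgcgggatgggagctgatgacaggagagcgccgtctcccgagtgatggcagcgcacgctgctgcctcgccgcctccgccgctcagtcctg
These starts differ in composition, with a GC content of 72.4% for Dsp, 68.8% for C1ql2, 46.4% for Tdo2 and 42.8% for Lct, against a median of 52.4% over 32851 windows of the same length. Lct held 2 E-boxes and C1ql2 held 1, while Dsp and Tdo2 held 0; 66.2% of all windows hold at least 1. The GC-box GGGCGG, searched on both strands, occurred 4 times in the Dsp window and in 32.7% of all windows. The TATA motif TATAAA, searched on both strands, occurred 1 time in the Tdo2 window, near its 5′ end, and in 12.4% of all windows. No window printed here holds more than 1 of these motif types, and a match is a description of the letters, not of a bound site.

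Dsp had the widest gap between the regions. On probe set 1435494_s_at it read 9.42, 8.97, 9.23 and 8.52 on hippocampal transgenic BDNF arrays 1 to 4, 9.26, 9.89, 8.54 and 8.80 with transgenic GFP, 9.61 and 9.20 with non-transgenic GFP, and 9.40, 9.16 and 8.89 with sham. In the entorhinal cortex it read between 3.82 and 5.31. The regional means were 9.15 ± 0.40 and 4.38 ± 0.50 (SD, n = 13 and 13), a difference of 4.76 or 27.1-fold. Probe set 1435493_at showed the same gap at a lower reading, 8.65 ± 0.37 against 4.00 ± 0.39, and 1427610_at read only 4.01 against 3.63 with arrays that overlap. Within the entorhinal cortex the highest Dsp readings were on sham arrays 1 and 2 (5.22 and 5.31) and transgenic BDNF array 4 (5.04). The mean over 12 genes of the meninges, the membranes around the brain, was 8.26, 8.76 and 8.50 on these arrays, in a regional range of 7.44 to 8.76. Transgenic GFP array 1 had a meningeal mean of 8.53 with Dsp at 4.27, and over the 13 arrays r was 0.59 (a description). With the mean of 7 endothelial genes, r was 0.69 over the same arrays. The part of meningeal or endothelial tissue in the Dsp readings was not tested.

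Lct, St18 and Tdo2 followed. Lct read between 8.58 and 9.76 in the hippocampus and between 4.78 and 5.84 in the entorhinal cortex, with means of 9.14 ± 0.34 and 5.21 ± 0.31 (15.2-fold). St18 had a narrow hippocampal range on 1455123_at, 8.34 to 8.97, against 3.94 to 5.33 in the entorhinal cortex, and means of 8.62 ± 0.19 and 4.86 ± 0.38 (13.5-fold). Its other probe set, 1436793_at, read 7.01 ± 0.40 against 5.28 ± 0.21. Tdo2 read 7.34 ± 0.39 in the hippocampus and 4.22 ± 0.35 in the entorhinal cortex on 1419093_at (8.69-fold). Its other probe sets showed smaller gaps, 5.52 against 4.75 on 1449337_at, where arrays overlap, and 4.13 against 3.33 on 1455770_at.

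C1ql2 and Prox1 also separated the regions array by array. C1ql2, with 1 probe set, read 9.07 ± 0.49 in the hippocampus and 6.12 ± 0.39 in the entorhinal cortex (7.71-fold). Its lowest hippocampal array, transgenic GFP array 4 at 8.45, lay above its highest entorhinal array, transgenic GFP array 2 at 6.84. Prox1 read 7.19 ± 0.46 against 4.90 ± 0.35 on 1437894_at (4.89-fold), 5.14 against 3.40 on 1421336_at, and 4.92 against 3.88 on 1457432_at, whose regions overlap. Across the genes, 10 of the 18 probe sets had every hippocampal array above every entorhinal array, 0 had the reverse and 8 overlapped. Over all probe sets, 3.77% had every hippocampal array higher and 2.9% every hippocampal array lower; since the genes were chosen on this contrast, nothing is read from their count.

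Calb1 and Trpc6 did not follow the others. Trpc6 was only 1.59-fold higher in the hippocampus (6.15 ± 0.27 against 5.48 ± 0.25), and entorhinal transgenic BDNF array 3, at 6.16, reached into the hippocampal range of 5.51 to 6.44. Calb1 went against its label as a gene of the dentate gyrus in this pair of tissues. On 1417504_at it read 11.40 ± 0.18 in the hippocampus and 11.90 ± 0.31 in the entorhinal cortex, 0.50 lower in the hippocampus. Probe sets 1456934_at and 1448738_at were also lower there, by 0.58 and 0.35, and 1458836_at read 3.85 against 3.88. Calbindin is also made by neurons of the entorhinal cortex and by interneurons, so a lower hippocampal reading in whole tissue does not speak of granule cells alone. In whole tissue, fewer cells of a type and less RNA per cell cannot be told apart for any of the genes.

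**Figure D1:**
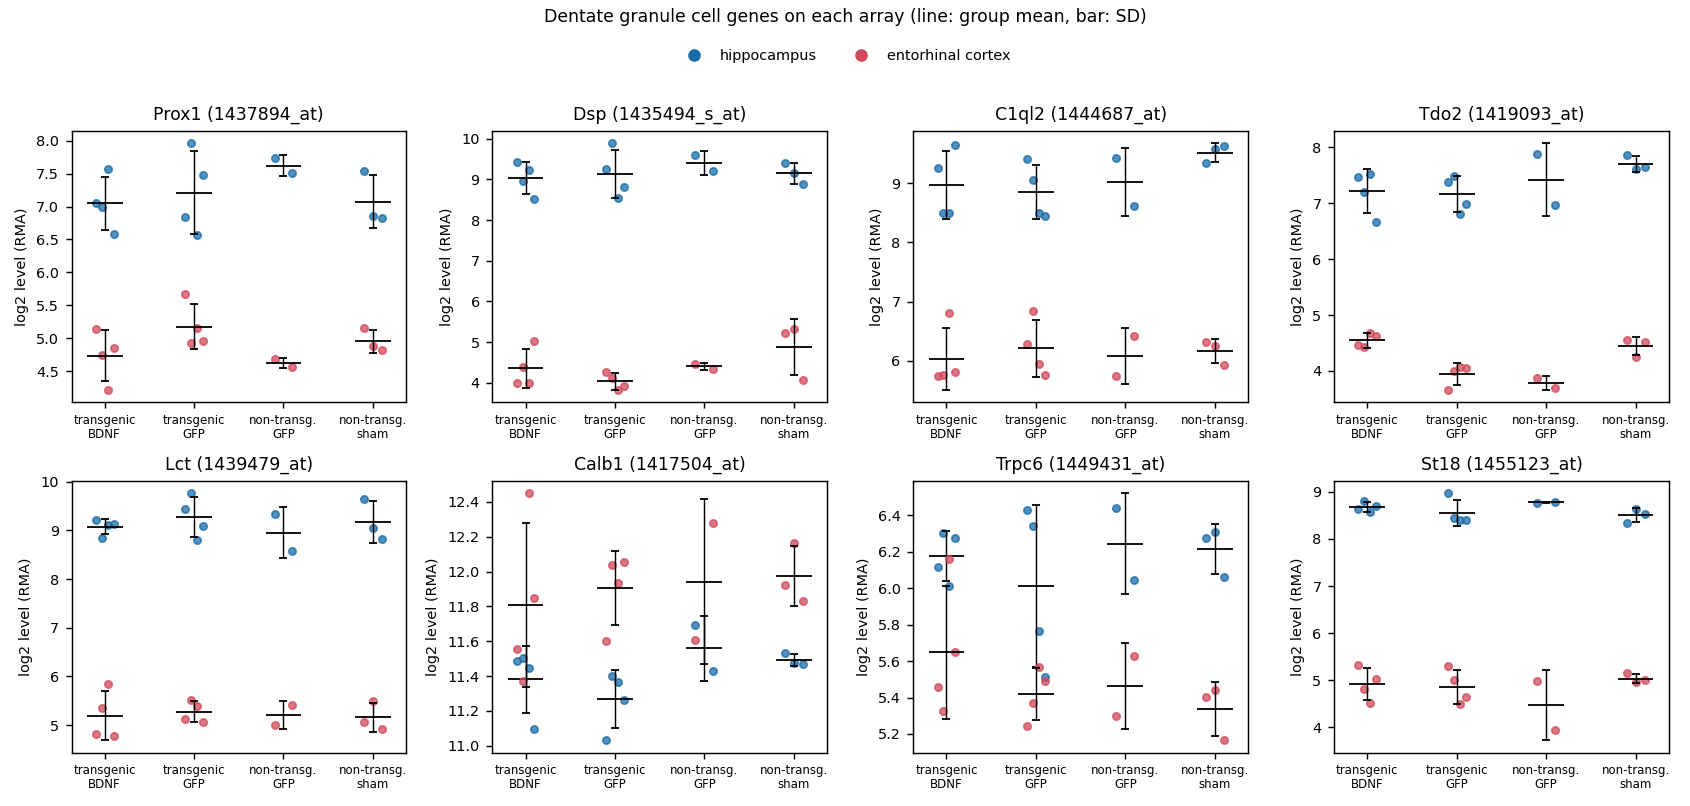
Log2 level (vertical axis, RMA) of the probe set with the highest mean of each of the 8 genes on each of 26 arrays, by group (horizontal axis). Points are arrays, coloured by region; lines are group means and bars SD. Prox1, Dsp, C1ql2, Tdo2, Lct and St18 have every hippocampal array above every entorhinal array, Trpc6 overlaps, and Calb1 has a lower mean in the hippocampus (11.40 against 11.90).

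The order of the 8 group means within each region was shallow for most genes. For the 6 genes without overlap, the step from the lowest hippocampal group to the highest entorhinal group was 1.88 for Prox1, 4.16 for Dsp, 2.65 for C1ql2, 2.61 for Tdo2, 3.68 for Lct and 3.47 for St18. Inside a region, neighbouring groups in this order differed by less than the SD of at least 1 of them, except at 2 steps. In the hippocampus, St18 had a mean of 8.78 on the 2 non-transgenic GFP arrays and 8.68 on the transgenic BDNF arrays, a gap of 0.10 that exceeds both SDs because the 2 arrays nearly coincide. In the entorhinal cortex, Tdo2 dropped by 0.50 between sham (4.44 ± 0.16) and transgenic GFP (3.95 ± 0.19).

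Marker genes of other cell types showed what the dissections held. A list of 12 oligodendrocyte genes had means of 9.04 to 9.70 on hippocampal arrays and 6.96 to 8.62 on entorhinal arrays, the lowest on entorhinal transgenic BDNF array 3 (6.96) and non-transgenic GFP array 2 (7.18). Choroid plexus genes (11 measured) averaged 7.98 on hippocampal sham array 1 and at most 5.34 on each of the rest. Xist, which coats the inactive X chromosome, read high on all 10 non-transgenic arrays and on 2 of 4 arrays in each transgenic group. Results that changed most without these arrays are given both ways.

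The genes varied together in part from one hippocampal array to the next. Relative to the median of the region, non-transgenic GFP array 1 had all 8 genes higher and transgenic GFP array 3 had all 8 lower, while transgenic GFP array 4 had only Prox1 higher. Sham array 1, the array with high choroid plexus genes, had 7 of 8 higher. Transgenic GFP array 2 had the highest Prox1, Dsp and Lct of the region (7.96, 9.89 and 9.76) but C1ql2, Calb1 and St18 below the median. The mean of the transgenic GFP arrays therefore covers arrays that lie far apart.

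**Figure D2:**
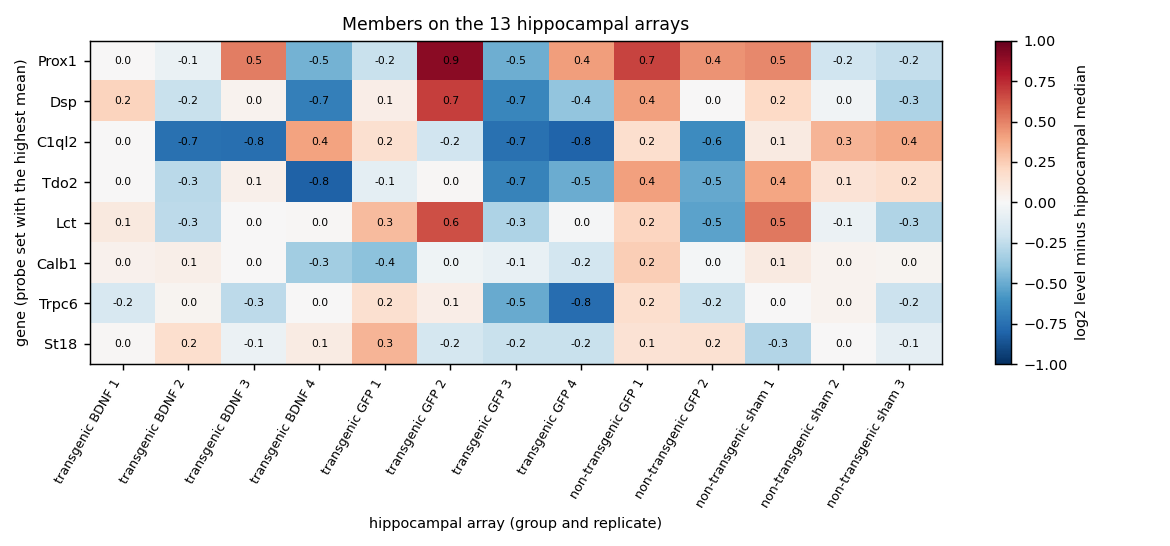
Log2 level minus the median of the 13 hippocampal arrays (colour and printed value) for the 8 genes (rows, probe set with the highest mean) on each array (columns). Non-transgenic GFP array 1 is above the median for all 8 genes and transgenic GFP array 3 below it for all 8.

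Over the 13 hippocampal arrays, 21 of the 28 pairs of genes correlated positively, with a median Pearson r of 0.43 and a range of −0.25 to 0.76. Prox1 and Dsp had the highest correlation (r = 0.76, permutation p = 0.00273, Spearman rho = 0.77, permutation p = 0.00316). Leaving out the 2 arrays farthest from the Prox1 median gave r = 0.58, and after centring each group r was 0.74. Dsp and Tdo2 had r = 0.72 (permutation p = 0.00546, rho = 0.62, permutation p = 0.0268), 0.73 without the 2 farthest arrays and 0.84 after centring each group. After adjustment over the 28 pairs, both Pearson p-values were 0.0764 and the rank p-values were 0.0885 and 0.175, so 0 pairs passed at 0.05. Dsp with Lct had r = 0.65, and C1ql2 with Trpc6 and Tdo2 with Calb1 each had r = 0.62 (adjusted permutation p = 0.12 for each of the 3). Among entorhinal arrays, where most of these genes read low, 15 of 28 pairs were positive with a median r of 0.02, and 0 passed after adjustment.

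The correlation with other gene lists differed between the regions. In the hippocampus, Dsp followed the mean of 22 other dentate granule genes (r = 0.77), as did Lct (0.73) and Trpc6 (0.62). Calb1 followed that mean less (0.36) and St18 did not (−0.10). Trpc6 ran more closely with the meningeal mean (0.72), and against the means of activity-regulated (−0.71) and calcium-binding genes (−0.70). St18 ran against the oligodendrocyte mean there (r = −0.72). On entorhinal arrays Calb1 followed the other dentate granule genes more closely (r = 0.82, and 0.74 over 11 arrays without the 2 lowest in oligodendrocyte genes). Lct was at 0.53 there, C1ql2 at 0.52, Trpc6 at 0.46 and Dsp at 0.28. Tdo2 was at −0.09, Prox1 at −0.42 and St18 at −0.58. Without the same 2 arrays, Lct was at 0.33, C1ql2 at 0.33, Trpc6 at 0.14 and Dsp at 0.47. Tdo2 was then at −0.10, Prox1 at −0.11 and St18 at −0.36. In the entorhinal cortex, Calb1 ran closely against the oligodendrocyte mean (r = −0.92), as did Trpc6 (−0.75), Lct (−0.69) and C1ql2 (−0.62), while St18 (0.76) and Prox1 (0.71) ran with it. Without the 2 arrays of lowest oligodendrocyte mean, Calb1 kept r = −0.88 over 11 arrays, but the others came nearer 0, at −0.32 for Trpc6, −0.43 for Lct, −0.32 for C1ql2, 0.52 for St18 and 0.36 for Prox1. These are descriptions over arrays that share normalization and dissection. Entorhinal Calb1 on 1417504_at was highest on the 2 arrays with the lowest oligodendrocyte means, transgenic BDNF array 3 (12.45) and non-transgenic GFP array 2 (12.28), and lay between 11.37 and 12.17 on the others.

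Genes outside the group with the most similar hippocampal profile were named by Pearson r over the 13 arrays. The mean of the 8 genes was most like Tbc1d4 (r = 0.92), Glis3 (0.89), Sgk3 (0.88), Nsa2 (0.87) and Il1rap (0.85). Glis3 is 1 of the other dentate granule genes listed. Calb1 was most like Ogn (0.91), C1ql3 (0.91) and Fat4 (0.87), and Tdo2 most like Rasgrf2 (0.90), Tox4 (0.88) and Stt3b (0.87). Ogn, a proteoglycan, is on the list of meningeal genes, and C1ql3 is another listed dentate granule gene.

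Whether the APP transgene went with lower levels of these genes was first read over all hippocampal arrays, 8 transgenic against 5 non-transgenic. Limma called 0 of the 18 probe sets at an adjusted p under 0.05, against 0.0266% of all probe sets, and 3 of 18 had an unadjusted p under 0.05, against 5.12% of all probe sets. The difference was below 0 for 16 of 18, against 49.3% of all probe sets, but probe sets of a gene are not independent. Over 1 probe set per gene, 6 of 8 genes were below 0, with a median of −0.17 against 0.01 over all genes. The exceptions were Lct (0.09 ± 0.18) and St18 on 1455123_at (0.01 ± 0.10) (SE here and below). The other St18 probe set, 1436793_at, had a lower transgenic mean, 6.88 against 7.23 on non-transgenic arrays (SD 0.39 and 0.33).

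Calb1 carried the smallest p-values of that comparison among the genes. On 1448738_at it read 6.23, 6.62, 6.37 and 6.14 on transgenic GFP arrays 1 to 4 and 6.76, 6.83, 6.48 and 6.12 on transgenic BDNF arrays. Non-transgenic GFP arrays read 7.09 and 6.84, and sham arrays 6.60, 6.70 and 6.71. BDNF arrays 1 and 2 and GFP array 2 overlapped the non-transgenic range, and the others lay below it. The difference was −0.35 ± 0.12 (95% confidence interval −0.60 to −0.10, limma adjusted p = 0.815). The other probe sets read −0.20 ± 0.09 (1417504_at), −0.22 ± 0.12 (1456934_at) and −0.12 ± 0.08 (1458836_at).

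Set against transgenic GFP arrays only, the Calb1 readings were lower still. The difference from all non-transgenic arrays was −0.45 ± 0.14 on 1448738_at and −0.25 ± 0.10 on 1417504_at (limma adjusted p = 0.999 for both). On 1417504_at the transgenic GFP arrays read 11.03, 11.40, 11.37 and 11.27, all below the non-transgenic arrays, which lay between 11.43 and 11.69. This was 1 of the 18 probe sets with no overlap, against 0.475% of all probe sets that were lower without overlap. In this comparison 0 of 18 were called (0.0155% of all probe sets), 2 of 18 had an unadjusted p under 0.05 (4.25% of all) and 17 of 18 were below 0 (50.2% of all). With the vector the same, transgenic GFP against the 2 non-transgenic GFP arrays, Calb1 read −0.62 ± 0.18 on 1448738_at and −0.29 ± 0.13 on 1417504_at. There 0 of 18 were called (0.00444% of all), 3 had an unadjusted p under 0.05 (4.16%), 3 were lower with no overlap, all of them Calb1 (3.43%), and 17 were below 0 (44.3%). Those 3 measure 1 gene and are not independent. On the weak probe set 1458836_at the highest transgenic GFP array read 3.9002 and the lowest non-transgenic GFP array 3.9012, so they nearly touch.

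**Figure D3:**
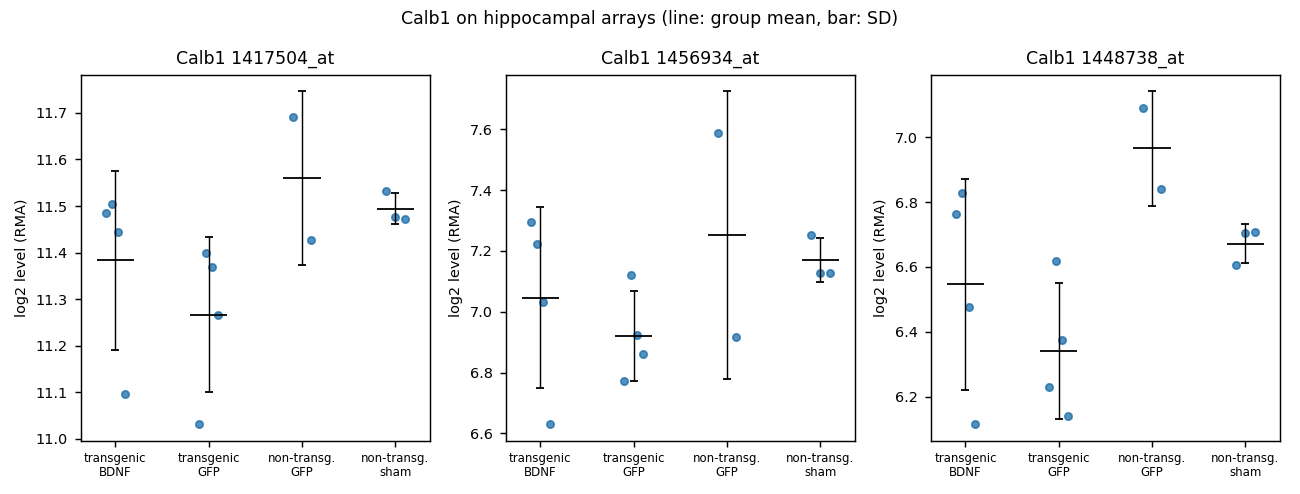
Log2 level (vertical axis, RMA) of 3 Calb1 probe sets on the 13 hippocampal arrays by group (horizontal axis); points are arrays, lines group means and bars SD. On 1417504_at the 4 transgenic GFP arrays (11.03 to 11.40) lie below all non-transgenic arrays (11.43 to 11.69), and transgenic BDNF array 4 (11.10) lies apart from its group.

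Tdo2, C1ql2, Dsp, Prox1 and Trpc6 also had differences below 0. Tdo2 on 1419093_at read 7.86, 7.61 and 7.64 on sham arrays, 7.88 and 6.96 on non-transgenic GFP arrays, 6.81 to 7.48 over the transgenic GFP arrays, and 6.66 to 7.52 over those with BDNF. The transgenic and non-transgenic arrays overlapped, since non-transgenic GFP array 2 lay among the transgenic arrays. Over all arrays the Tdo2 difference was −0.40 ± 0.18 (limma adjusted p = 0.967). C1ql2 gave −0.40 ± 0.23, Dsp −0.17 ± 0.21, Prox1 −0.16 ± 0.23 and Trpc6 −0.13 ± 0.14, and the intervals of these 4 include 0.

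Transgenic BDNF arrays against all non-transgenic arrays gave 0 of 18 called (0.00888% of all probe sets), 1 with an unadjusted p under 0.05 (5.74%) and 17 below 0 (48.6%). The 1 was Prox1 on 1421336_at at −0.38 ± 0.17 (limma adjusted p = 0.858). Its BDNF arrays, 4.66 to 5.03, lay below all non-transgenic arrays, 5.10 to 5.67, against 0.988% of all probe sets that were lower without overlap. On the leading Prox1 probe set, 1437894_at, the same arrays overlapped, at 6.59 to 7.57 with BDNF and 6.82 to 7.74 without the transgene. These comparisons share arrays and are not independent of each other.

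Several lists of other cell types also lay below 0 for all transgenic against all non-transgenic hippocampal arrays, but not all. Microglial genes were above 0 in 6 of 10 (median 0.02). Astrocyte genes were below 0 in 8 of 9 (median −0.09), with 3 at an unadjusted limma p under 0.05. Limma called 0 in both lists. Against non-transgenic arrays, hippocampal transgenic arrays read below in 12 of 12 meningeal genes (median −0.29), 7 of 7 endothelial genes (−0.13), 12 of 12 oligodendrocyte genes (−0.11) and 11 of 11 choroid plexus genes (−0.46), with 0 called in each. Without sham array 1, which alone carried the choroid plexus genes, 6 of 11 choroid plexus genes were below 0 (median −0.00055), as were 10 of 12 oligodendrocyte genes (−0.06), 11 of 12 meningeal genes (−0.30) and 7 of 7 endothelial genes (−0.12). Within the high-Xist arrays the meningeal median was −0.13 and the endothelial median −0.24. The meningeal mean was 7.37 to 7.52 on the 5 non-transgenic arrays, 7.05 to 7.37 on transgenic BDNF arrays and 6.73 to 7.48 on transgenic GFP arrays. Their part in the lower readings of the dentate genes was not tested. Without sham array 1, limma called 0 probe sets of the 8 genes in this comparison.

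Prox1 and 1 of the 2 St18 probe sets split the transgenic GFP arrays by Xist class. How many of all probe sets split these 2 against 2 arrays in the same way was not counted, so nothing is read from the split. In the hippocampus, Prox1 on 1437894_at read 6.84 and 6.57 on the high-Xist arrays 1 and 3, and 7.96 and 7.47 on the low-Xist arrays 2 and 4. St18 on 1436793_at read 6.37 and 6.49 against 7.27 and 7.40 in the same order, and Prox1 on 1457432_at read 4.11 and 4.19 against 6.09 and 5.51. The leading St18 probe set, 1455123_at, did not split, with 8.97 and 8.40 against 8.45 and 8.40. The transgenic BDNF arrays did not show the split for Prox1 on 1437894_at, with 7.06 and 6.99 on high-Xist arrays and 7.57 and 6.59 on low-Xist arrays. Nor did they for St18 on 1436793_at, with 7.02 and 6.90 against 7.06 and 6.49. Since all non-transgenic arrays were of the high class, a comparison within that class was added after seeing the data. There, transgenic GFP minus non-transgenic GFP was −0.92 for Prox1 and −1.08 for St18 on 1436793_at, against −0.41 and −0.63 over all arrays. The adjusted p of St18 was 0.0842 in that fit, the smallest of any probe set of the 8 genes under any setting, and it rests on 2 arrays against 2. St18 on 1455123_at gave −0.09 within the class and −0.22 over all arrays.

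**Figure D4:**
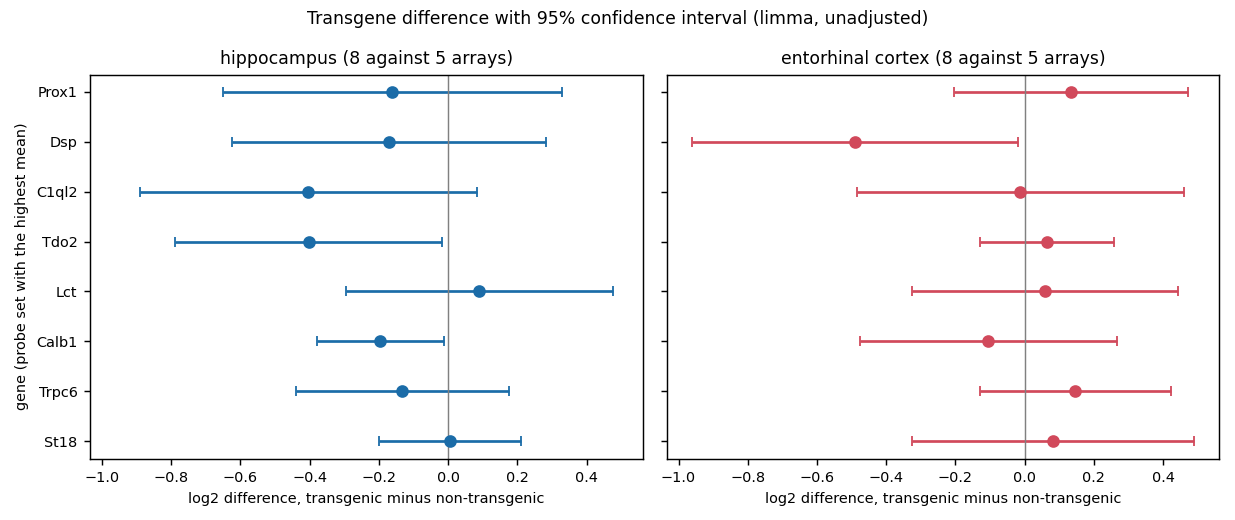
Log2 difference, transgenic minus non-transgenic (horizontal axis), for each gene (vertical axis, probe set with the highest mean) in hippocampus (left) and entorhinal cortex (right), 8 against 5 arrays. Points are limma estimates and bars unadjusted 95% confidence intervals. In the hippocampus 6 of 8 estimates lie below 0, with C1ql2 and Tdo2 lowest at −0.40; in the entorhinal cortex Dsp is lowest at −0.49.

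The entorhinal transgene comparison was led by other genes. Over all arrays, 0 of 18 probe sets were called (0.0178% of all), 2 had an unadjusted p under 0.05 (8.01%) and 11 were below 0 (47.9%). Dsp on 1435494_s_at was at −0.49 ± 0.22 (limma adjusted p = 0.617), and St18 on 1436793_at was at 0.25 ± 0.10 (adjusted p = 0.603). The highest non-transgenic Dsp arrays were sham arrays 1 and 2, named above, and leaving out 1 array at a time gave −0.64 to −0.33. Calb1 read −0.11 ± 0.17 on 1417504_at, in the same direction as in the hippocampus but smaller than its error. Tested directly over all 26 arrays, the transgene difference did not pass between the regions for any of the 18, against 0% of all probe sets, with 2 at an unadjusted p under 0.05 (5.52% of all). These were St18 on 1436793_at (hippocampus minus entorhinal cortex −0.61 ± 0.22) and Tdo2 on 1419093_at (−0.47 ± 0.21), both with a limma adjusted p of 0.895.

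Transgenic GFP arrays alone against the entorhinal non-transgenic arrays gave 0 of 18 called (0.00888% of all probe sets) and 4 with an unadjusted p under 0.05 (4.01%). Against non-transgenic GFP arrays, 0 were called (0.00444%) and 2 had an unadjusted p under 0.05 (2.57%). These 2 were Prox1 on 1437894_at, 0.55 ± 0.24 higher, and St18 on 1436793_at, 0.35 ± 0.15 higher. Prox1 was also the only probe set higher with no overlap (5.47% of all), while Prox1 on 1421336_at and Dsp on 1435494_s_at were lower with no overlap (5.48% of all). The Prox1 probe sets thus read in opposite directions in tissue where the gene is low.

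Whether BDNF raised these genes in the hippocampus, the target of the injected neurons, was read from 4 transgenic BDNF and 4 transgenic GFP arrays. Limma called 0 of the 18 probe sets, as it did 0% of all probe sets, and 0 of 18 had an unadjusted p under 0.05, against 4.69% of all probe sets. The difference was below 0 for 7 of 18 (47.1% of all), and the median over the 8 genes was 0.09 against −0.01 over all genes. Calb1 was higher on all 4 of its probe sets, by 0.12 ± 0.11 on 1417504_at, 0.20 ± 0.14 on 1448738_at, 0.13 ± 0.15 on 1456934_at and 0.12 ± 0.10 on 1458836_at. On 1417504_at the BDNF arrays read 11.49, 11.50, 11.45 and 11.10 and the GFP arrays 11.03, 11.40, 11.37 and 11.27. Of the BDNF arrays, 3 lay above every GFP array and array 4 lay below 3 of them. The 95% confidence interval was −0.11 to 0.34. Between the 2 high-Xist arrays of each group the difference was 0.29, with 0 of 18 called. There the difference turned from below to above 0 for Prox1 on 1437894_at (−0.16 to 0.32) and 1457432_at (−0.26 to 0.48), Dsp on 1435494_s_at (−0.09 to 0.29) and 1435493_at (−0.18 to 0.10) and St18 on 1436793_at (−0.01 to 0.53). It turned from above to below 0 for C1ql2 (0.12 to −0.08) and Calb1 on 1458836_at (0.12 to −0.01).

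The other genes gave smaller differences beside their errors. Trpc6 gave 0.16 ± 0.18, St18 0.12 ± 0.12, C1ql2 0.12 ± 0.28 and Tdo2 0.05 ± 0.22. Dsp (−0.09 ± 0.26), Prox1 (−0.16 ± 0.28) and Lct (−0.20 ± 0.22) were below 0. Over all 18 probe sets the widest 95% confidence interval was that of Prox1 on 1457432_at, from −1.06 to 0.55. The narrowest was that of Calb1 on 1458836_at, from −0.09 to 0.34. Changes of any size inside an interval remain compatible with these arrays. Hippocampal oligodendrocyte genes were below 0 with BDNF in 12 of 12 (median −0.30) and microglial genes in 9 of 10 (−0.37), with 0 called in each. Within the high-Xist arrays these were 6 of 12 (−0.04) and 8 of 10 (−0.46), and their part in the readings of the dentate genes was not tested.

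In the injected entorhinal cortex, Tdo2 had the smallest p-value of all 45037 probe sets in the comparison of BDNF with GFP, on 1419093_at. It read 4.46, 4.42, 4.68 and 4.63 on transgenic BDNF arrays and 3.66, 4.00, 4.07 and 4.05 on transgenic GFP arrays, with no overlap. Non-transgenic GFP arrays read 3.88 and 3.70, and sham arrays 4.55, 4.26 and 4.52. Both GFP groups were thus low, and the BDNF and sham groups high. The difference between BDNF and GFP was 0.60 ± 0.11 (95% confidence interval 0.36 to 0.84), and the limma adjusted p was 0.997. Non-transgenic GFP minus sham was −0.65 ± 0.14 (adjusted p = 1). All of these levels are far below the hippocampal range of 6.66 to 7.88, and the deposited values carry no detection calls.

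The other Tdo2 probe sets did not follow. On 1449337_at the difference between BDNF and GFP was 0.03 ± 0.19, with arrays between 4.34 and 5.10 and between 4.48 and 4.83. On 1455770_at it was −0.15 ± 0.10. In the hippocampus the 3 probe sets gave 0.05, 0.06 and 0.10. The difference of the BDNF effect between the regions was −0.55 ± 0.26 for 1419093_at (hippocampus minus entorhinal cortex, limma adjusted p = 1). In that test 0 of 18 were called (0% of all probe sets) and 1 had an unadjusted p under 0.05 (4.09% of all).

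**Figure D5:**
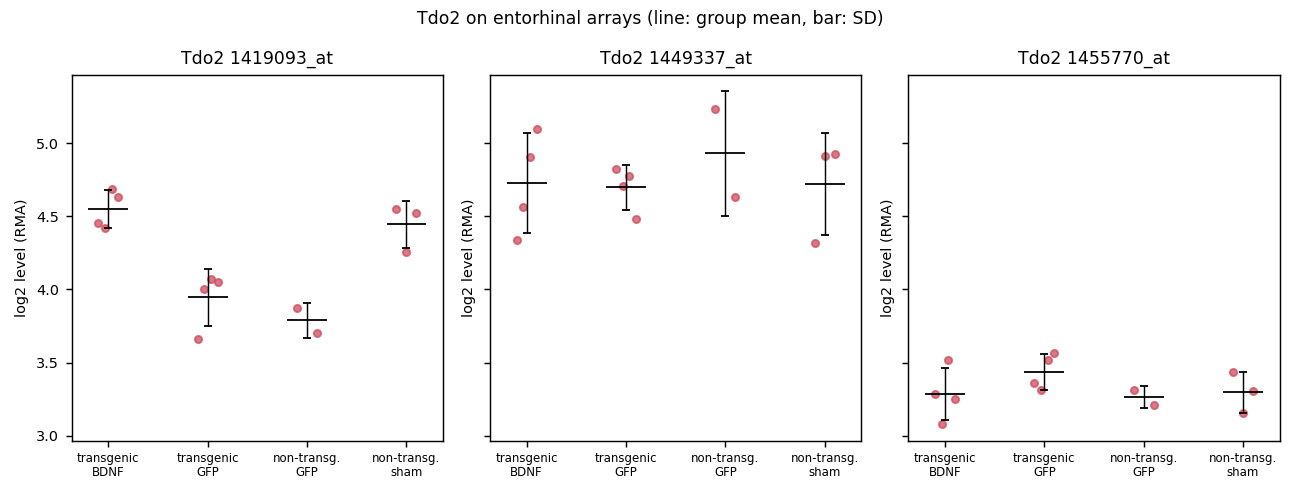
Log2 level (vertical axis, RMA) of the 3 Tdo2 probe sets on the 13 entorhinal arrays by group (horizontal axis); points are arrays, lines group means and bars SD. On 1419093_at both GFP groups lie between 3.66 and 4.07 and the BDNF and sham groups between 4.26 and 4.68; the other 2 probe sets do not separate these groups.

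Over the rest of that comparison, 0 of 18 probe sets were called (0% of all), 3 had an unadjusted p under 0.05 (4.56% of all), 8 were below 0 (44.9%) and Tdo2 was the only 1 higher with no overlap (1.43%). Prox1 on 1437894_at gave −0.44 ± 0.19, at 5.15, 4.74, 4.21 and 4.84 against 5.67, 4.93, 5.15 and 4.95. Its lowest array was BDNF array 3, which had the lowest oligodendrocyte mean, and without that array and non-transgenic GFP array 2 the Prox1 difference was −0.27. Within the high-Xist arrays it was 0.06. The same array had the highest Calb1, Lct and Trpc6 of the region on their leading probe sets, and without the 2 arrays Calb1 on 1417504_at went from −0.10 to −0.31, Lct from −0.08 to −0.30 and Trpc6 from 0.23 to 0.06. Transgenic BDNF against all non-transgenic arrays gave 0 of 18 called (0.0111% of all), with Tdo2 on 1419093_at the 1 with an unadjusted p under 0.05 (9.85% of all) at 0.37 ± 0.10 (limma adjusted p = 0.413).

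The GFP vector was set against sham in non-transgenic mice, 2 arrays against 3. In the hippocampus 0 of 18 were called (0.0244% of all probe sets), 0 had an unadjusted p under 0.05 (8.64% of all) and 4 were below 0 (59.7%). Probe sets higher with no overlap numbered 3 (10.4% of all), both of St18 and Calb1 1448738_at. St18 was 0.28 ± 0.15 higher on 1455123_at and 0.46 ± 0.29 on 1436793_at. In the entorhinal cortex 0 were called (0.00444% of all), 1 had an unadjusted p under 0.05 (2.85%), the Tdo2 probe set above, and 4 were lower with no overlap (10.3%). C1ql2 was −0.50 ± 0.36 in the hippocampus and −0.08 ± 0.35 in the entorhinal cortex.

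A list of other dentate granule genes, written from general knowledge, was read beside the 8. It was chosen with earlier results of these arrays known, so its counts between the regions are a description. It held 23 genes, of which 22 had a probe set. Between the regions in non-transgenic mice, limma called 14 of the 22 higher in the hippocampus and 1 lower, against 13.1% and 10.8% of all probe sets, with a median of 0.48 against 0.02 over all genes. Those higher were Npnt (2.26 ± 0.19), Sema5a (2.14 ± 0.15), Zbtb20, Tanc1, Dock10, Plekha2, Orai2, Fam163b, Stxbp6, Glis3, Rasgrp1, Ahcyl2, Dgat2 and Bcl11b. Ntng1, a membrane-anchored netrin also made by cortical neurons, was lower (−1.36 ± 0.14). In transgenic mice 15 were called higher and 1 lower, against 16.9% and 15.9% of all probe sets. Limma called 0 of the 22 in any comparison of the treatments or genotypes. In the hippocampus, 19 of 22 were below 0 for all transgenic against all non-transgenic arrays (median −0.07 against 0.01 over all genes), and 0 had an unadjusted p under 0.05. Without sham array 1, 16 of 22 were below 0 (median −0.05). The largest changes were Plk5 (−0.19 ± 0.10) and Dock10 (−0.17 ± 0.11). For BDNF against GFP, 14 of 22 were below 0 (median −0.05), and within the high-Xist arrays 9 of 22 were (median 0.05). The list mean was 9.18 to 9.27 on transgenic BDNF arrays, 9.15 to 9.48 on transgenic GFP arrays and 9.22 to 9.44 on non-transgenic arrays, so the groups overlap.

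Genes that work with each of the 8 were read from lists in the same way, and limma called 0 of them in any comparison of treatments or genotypes. Their counts between the regions are to be read against the 13.1% of all probe sets higher and 10.8% lower in the hippocampus. Several are near those shares. The shares cover all probe sets, while a list takes the probe set with the highest mean of each gene, so they are not an equal background. These lists were also chosen with earlier results of these arrays known, and their counts between the regions are descriptions. Of 12 desmosome genes, 1 was higher and 3 were lower in the hippocampus of non-transgenic mice. The first was Pkp2, a plakophilin that binds desmoplakin (2.89 ± 0.16), and the others were the desmosomal cadherins Dsc3 (−2.27 ± 0.37) and Dsc1 (−0.43 ± 0.14) and the plakin Ppl (−0.21 ± 0.06). Among 8 genes of C1q-like proteins and their receptors, Grik4 (1.64 ± 0.13) and Grik2 (0.32 ± 0.11), which encode kainate receptor subunits, were higher, and the cerebellins Cbln1 (−2.24 ± 0.26) and Cbln4 (−2.13 ± 0.26) were lower. Of 5 other TRPC channels, Trpc4 was higher (1.53 ± 0.15) and Trpc7 lower (−0.57 ± 0.09). Of 12 tryptophan and kynurenine pathway genes, the aminotransferase Kyat1 (0.65 ± 0.08) and the brain tryptophan hydroxylase Tph2 (0.47 ± 0.12) were higher and the formamidase Afmid lower (−0.38 ± 0.09). Myt1, a zinc finger factor related to St18, was higher (0.33 ± 0.09), and Myt1l was not called (−0.23 ± 0.09). Of 16 calcium-binding and calcium transport genes, 6 were higher, Hpca (2.27 ± 0.13), Pvalb (1.39 ± 0.27), Cabp1, Calb2, Atp2b1 and Ppp3ca, and 4 were lower, Slc8a1, Hpcal1, Pcp4 and Vsnl1. Without hippocampal sham array 1 and the 2 entorhinal arrays low in oligodendrocyte genes, 1 desmosome gene was called lower instead of 3 and 1 gene of the C1q-like list higher instead of 2, while the other dentate list kept counts of 14 higher and 1 lower.

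Among these partners the differences with treatment and genotype did not pass. For BDNF against GFP in the hippocampus, all 5 TRPC channels were above 0, with Trpc7 at 0.23 ± 0.08 and Trpc2 at 0.12 ± 0.14, and 12 of 16 calcium-binding genes were below 0, with the calretinin gene Calb2 at 0.70 ± 0.42 and Cabp1 at −0.23 ± 0.29 the largest. Tph2 read −0.22 ± 0.13 and Kyat3 −0.21 ± 0.11. For the transgene in the hippocampus, Ppl read 0.25 ± 0.05 (limma adjusted p = 0.411) and Dsc2 −0.13 ± 0.06. Trpc7 read −0.46 ± 0.12 with BDNF in the entorhinal cortex (adjusted p = 0.997).

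Genes of newborn granule cells and of granule cell activity were read last. Of 16 genes of immature neurons, 13 were above 0 in the hippocampus for all transgenic against non-transgenic arrays (median 0.05), with the proliferation gene Mki67 at −0.28 ± 0.10 and Sox11 at 0.17 ± 0.31. With BDNF, 9 of 16 were above 0 (median 0.04), and 6 of 16 within the high-Xist arrays (−0.06). Of 16 activity-regulated genes, 11 were below 0 for the transgene (median −0.10) and 4 had an unadjusted p under 0.05, with Npas4 at −0.53 ± 0.19 and the neuropeptide gene Npy at −0.42 ± 0.09 (limma adjusted p = 0.437). Of the same list, 12 were below 0 with BDNF against GFP (median −0.14), with Arc at −0.61 ± 0.32 and Junb at −0.35 ± 0.20; within the high-Xist arrays 10 were (−0.06). Genes of the neighbouring fields lay nearer 0. For the transgene, 6 of 9 CA1 genes were above 0 (median 0.02), 6 of 9 CA3 genes below 0 (−0.04) and 3 of 5 mossy cell genes above 0 (0.01), with 0 called.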

How the data were processed

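The authors deposited log2 expression values for 26 arrays, made with RMA per the submitters' processing notes, and its settings are not given in the sources used. The values ran from 2.19 to 13.99 and array medians from 5.51 to 5.58, so the arrays share 1 scale; their number limits the precision, and no detection calls were used. Of 45101 probe sets, 64 controls were left out. Platform annotation gave 34945 probe sets 1 symbol, 932 several and 9160 none, and 34741 symbols were updated through Entrez identifiers. Limma 3.58.1 (R 4.3.3, lmFit and eBayes) was fitted to the 13 arrays of a region, or all 26 for differences between regions, with group means, over 45037 probe sets, with Benjamini-Hochberg adjustment and a threshold of 0.05; it was tested on simulated data. For lists, the probe set with the highest mean stood for a gene. Correlations across arrays used permutation p-values adjusted over 28 pairs.

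The 8 genes and the lists were chosen with earlier results of these data known. Named were every probe set of the 8 genes, the 2 largest changes and any called gene of each list described, and the genes most similar in profile. The labels call the samples biological replicates, and which animals they share across regions is not given. Same-numbered arrays of a region did not deviate together (r from −0.30 to 0.30, over 0.1 in 5 of 32 pairs), so numbers were not used as pairs. Alternatives were a filter at the 30th percentile, 1 probe set per gene, renewed quantile normalization, centring, trend and robust variance, array weights, other sets of arrays, covariates for Xist and for dentate genes, a replicate block and leaving out each array. Arrays with high Xist only, and the entorhinal fits without 2 arrays low in myelin genes, were added after seeing the data, as were list counts without hippocampal sham array 1.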

Additional observations from a re-analysis of the deposited data

Results flagged for a closer look

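Of 72 groups of 4 arrays checked, 6 held an array that stood apart from the other 3 by Dixon's criterion at the 95% level, which chance meets in about 1 group in 20. In the hippocampus, Calb1 on 1417504_at read 11.10 on transgenic BDNF array 4, with the nearest at 11.45. St18 on 1455123_at read 8.97 on transgenic GFP array 1, with the nearest at 8.45, and Tdo2 on 1455770_at read 4.54 on transgenic GFP array 2, with the nearest at 3.93. In the entorhinal cortex, C1ql2 read 6.81 on transgenic BDNF array 3, with the nearest at 5.81. Tdo2 on 1419093_at read 3.66 on transgenic GFP array 1, with the nearest at 4.00, and Prox1 on 1421336_at read 2.89 on transgenic GFP array 4, with the nearest at 3.36.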

How the results depend on the processing

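Over 375 alternative fits of the 14 comparisons, 0 called a probe set of the 8 genes. The smallest adjusted p was 0.0842, for St18 on 1436793_at in the hippocampus (transgenic minus non-transgenic GFP, −1.08, high-Xist arrays only), against 0.413 as the smallest in the fits reported. Of 6554 values of single probe sets under an alternative, 375 changed sign and 191 moved by 1 SE or more; the largest reported difference among those that changed sign was 2.27 SE. None of 504 differences between the regions moved by the SD or more. Most of these settings left out 1 of the 13 arrays of a region, which cannot move its mean by the SD. Nothing is therefore read from that count. Of 384 list medians, 18 moved. With the replicate number as a block, 0 probe sets of the 8 genes were called in each comparison. Some settings could not be run for every comparison, because a group held too few arrays or the setting concerned 1 region. With 2 to 4 arrays a group, differences of any size inside the intervals given above remain compatible with the data. The intervals are unadjusted and do not mark the size of difference that could be called.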
